A study of Mus musculus with 10 samples.

Results

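A set of 9 genes of meiotic arrest and resumption in mouse oocytes was followed for H3K4me3, the histone mark found at the start sites of active and CpG-rich genes, after deletion of *Setd1b*, which encodes an H3K4 methyltransferase. The genes were *Gpr3*, *Pde3a*, *Mos*, *Ccnb1*, *Ccnb2*, *Cdc25b*, *Wee2*, *Fbxo43* and *Cdk1*. All 5 kb windows that the deposited table lists under 1 of these gene names were taken, which gave 74 of 544879 windows. *Pde3a* alone had 51 of the 74, *Wee2* had 6, *Cdk1* had 4, *Ccnb2* and *Fbxo43* had 3 each, *Gpr3*, *Ccnb1* and *Cdc25b* had 2 each and *Mos* had 1. The table names 1 gene per window, so the windows with the transcription start sites (TSSs) of *Cdc25b* and *Wee2* were listed under the neighbouring genes *Spef1* and *E330009J07Rik*. Both windows were added to the description of TSS windows, outside the 74.

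GV oocytes were taken from 21-day-old females, labelled as strain C57BL6 (the study's methods give the C57BL/6OlaHsd background). Setd1b cKO oocytes carried both floxed *Setd1b* alleles and were Gdf9-Cre positive, and WT oocytes are labelled as carrying the same floxed alleles and as Gdf9-Cre negative. The study's methods also allow heterozygous females with Gdf9-Cre as WT. *Gdf9*-Cre is active in oocytes from early folliculogenesis, so *Setd1b* was intact before that stage. Each library came from a pool of about 200 oocytes. For H3K4me3, 3 cKO libraries (replicates 1, 3 and 4) and 3 WT libraries (replicates 1, 2 and 4) were compared, beside 2 input libraries per genotype.

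A fully grown oocyte waits in prophase of the first meiotic division, with a visible nucleus, the germinal vesicle. Cyclic AMP keeps it there: GPR3, a receptor that is active without a ligand, drives its synthesis, and PDE3A, a phosphodiesterase, breaks it down at resumption. The kinase that must stay inactive is CDK1 with its cyclins B1 and B2 (*Ccnb1*, *Ccnb2*). WEE2 phosphorylates and inhibits it, and CDC25B removes that phosphate. Later, MOS starts the MAP kinase cascade that holds the mature egg in metaphase of the second division, and EMI2, encoded by *Fbxo43*, holds the egg there by inhibiting the anaphase-promoting complex (APC/C).

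Promoters of 6 of the 9 genes matched the RefSeq promoter table (250 bases before to 50 after the start, GRCm38.p6). A set of 4 is printed because they span the range of sequence among the genes: *Gpr3*, whose H3K4me3 differed most between genotypes at the TSS, is the richest in CpG, *Wee2* is the poorest, and *Cdk1* and *Ccnb2* share the cell-cycle motifs. Capitals mark TTTGAA, the core of the cell cycle homology region (CHR), and CCAAT, each searched on both strands, so that ATTGG is CCAAT on the other strand. The sequences lie at chr4:133212487-133212786 (minus strand, *Gpr3*), chr6:40442613-40442912 (plus strand, *Wee2*), chr10:69352863-69353162 (minus strand, *Cdk1*) and chr9:70421505-70421804 (minus strand, *Ccnb2*).
Gpr3: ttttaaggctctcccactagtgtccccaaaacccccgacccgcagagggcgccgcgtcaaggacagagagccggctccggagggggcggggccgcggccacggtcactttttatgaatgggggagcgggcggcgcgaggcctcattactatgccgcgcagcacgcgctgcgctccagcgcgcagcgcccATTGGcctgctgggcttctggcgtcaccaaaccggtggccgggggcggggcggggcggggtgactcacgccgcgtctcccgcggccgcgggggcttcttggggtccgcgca
Wee2: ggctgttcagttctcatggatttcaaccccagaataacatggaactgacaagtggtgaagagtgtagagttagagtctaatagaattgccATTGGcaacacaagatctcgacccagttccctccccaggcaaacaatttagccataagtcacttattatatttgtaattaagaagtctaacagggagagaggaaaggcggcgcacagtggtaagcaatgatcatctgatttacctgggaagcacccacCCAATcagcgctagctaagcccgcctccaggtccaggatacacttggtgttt
Cdk1: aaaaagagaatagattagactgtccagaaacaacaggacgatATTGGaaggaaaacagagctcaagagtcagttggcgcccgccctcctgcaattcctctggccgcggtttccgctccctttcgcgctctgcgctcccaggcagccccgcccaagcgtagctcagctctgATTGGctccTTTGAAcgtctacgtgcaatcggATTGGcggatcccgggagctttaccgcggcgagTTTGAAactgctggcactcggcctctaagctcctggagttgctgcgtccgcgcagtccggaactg
Ccnb2: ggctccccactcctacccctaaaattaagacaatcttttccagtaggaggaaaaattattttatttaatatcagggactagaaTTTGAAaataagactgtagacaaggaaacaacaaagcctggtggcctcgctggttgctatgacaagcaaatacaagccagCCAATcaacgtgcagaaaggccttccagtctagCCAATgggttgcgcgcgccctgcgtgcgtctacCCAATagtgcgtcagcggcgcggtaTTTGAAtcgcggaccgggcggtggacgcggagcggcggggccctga

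The *Gpr3* promoter held 38 CpGs in 300 bases, that of *Ccnb1* 29, *Cdk1* 24, *Cdc25b* 20, *Ccnb2* 19 and *Wee2* 5, against a median of 7 over the 32851 promoters of the table. *Cdk1* and *Ccnb2* each held 2 CHR cores and 3 CCAAT boxes, and the other 4 promoters held no CHR core in this window. Of all promoters, 17.9% held a CHR core, 37.4% held CCAAT and 2.09% held a CHR core with 2 or more CCAAT. The GC box GGGCGG, on either strand, occurred 5 times in *Gpr3*, 4 times in *Cdc25b*, 3 times in *Ccnb1*, 2 times in *Cdk1*, 1 time in *Ccnb2* and was not found in *Wee2*, and 35.7% of all promoters held it. These matches describe letters only.

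The deposited H3K4me3 values are enrichment-normalized RPKM (reads per kilobase, scaled to library size), a linear scale on which the authors set the 40th and 99th percentiles equal in all libraries, and which can fall below 0. Depth was 10856015 to 32775874 reads in windows, and single windows of the 9 genes held 0 to 277 reads. Enrichment before normalization differed: the reads at the 99th percentile of windows exceeded those at the 40th by a factor of 13.5 (replicate 1), 3.47 (replicate 3) and 3.88 (replicate 4) in cKO and of 14.3 (replicate 1), 5.38 (replicate 2) and 6.97 (replicate 4) in WT, so that cKO replicate 3 was the least enriched. The TSS window of the targeted gene *Setd1b* fell from 7.11 ± 0.861 in WT to 4.36 ± 0.385 in cKO (SD, n = 3, limma adjusted p = 0.0332, edgeR adjusted p = 0.446). The TSS windows of 10 oocyte markers all lay above the 90th percentile of WT windows, as did 11669 of all 48576 TSS windows. The summed level of the 10 markers was 54.2 to 56.2 in cKO and 59.7 to 66.4 in WT. The cKO mean was lower in 8 of the 10, without overlap in 6, none passed in limma, and 2 were lost and 1 gained with the trend. The gained one was *Gdf9*, whose promoter drives the Cre, at 10.7 ± 1.65 in cKO and 7.46 ± 0.427 in WT (SD, n = 3, limma adjusted p = 0.0598, edgeR adjusted p = 0.905), in a window listed under *Uqcrq*. The summed level over the TSS windows of 10 granulosa and theca markers was 34.5 to 38.8 in cKO and 23.5 to 25.2 in WT, higher in cKO on average in 10 of 10 and without overlap in 6 (12.7% of all TSS windows), of which 1 passed the test (*Foxl2*, 7.06 ± 1.12 in cKO and 4.21 ± 0.337 in WT, SD, n = 3, limma adjusted p = 0.0415, edgeR adjusted p = 0.744), and 3 passed with the intensity trend. In edgeR *Hsd17b1* passed (adjusted p = 0.0313). Over all TSS windows 0.896% gained in limma, 1.83% gained and 1.95% lost with the trend, 50.7% had a lower cKO mean and 9.38% were lower without overlap. Summed levels of 4 blood and stroma markers were 12.7 to 14.8 in cKO and 12.1 to 13.1 in WT. H3K4me3 at a TSS is not RNA, no marker list was at 0, and the part of other cells, of depth and of enrichment in the results below was not tested.

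No window of the 9 genes gained or lost H3K4me3 in cKO oocytes at an adjusted p under 0.05 (limma over all windows, two-sided, Benjamini-Hochberg): 0 of 74 gained and 0 of 74 lost. The background over all windows was 0.563% gained and 0.454% lost, so a list of 74 windows would hold few calls at that rate. The study called a larger share of the genome with LIMMA, so fewer windows were called here than in the study. Without adjustment, 4 of 74 windows (5.41%) had p under 0.05, against 14.9% of all windows. All 4 were among the 23 windows of the other 8 genes (17.4%), and *Pde3a* had 0 of 51. With an intensity trend in the variance (1.57% gained and 2.01% lost over all windows) 1 window was lost, and edgeR on the recovered reads (1.07% gained and 1.22% lost over all windows) also called 1 lost, so 1 of 74 is near the background of both fits. In both fits this was the window over the 3′ end of *Gpr3*. Every cKO library lay above every WT library in 5 of 74 windows, against 9.88% of all windows, and below in 3, against 9.95%. The median difference, cKO minus WT, was 0.08 over the 74 windows, 0.0004 without *Pde3a* and −0.10 over all windows. Leaving out 1 library gave −0.011 (without WT replicate 4) to 0.126 (without cKO replicate 4) over the 74 windows. The smallest difference called anywhere was 1.62 in size and the median SE over the 74 windows was 0.367, with 3 libraries a group. On simulated libraries with the real depths and an assumed spread between libraries, limma called 85 of 200 windows given a difference of 3.

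At the TSS, most of the 9 genes were marked in WT: 7 of the 9 windows lay above the 90th percentile of all windows (4.31 normalized RPKM) and *Mos* above the 99th (6.62). Of all 48576 TSS windows, 11669 lay above the 90th percentile. None of the 9 passed the test, against 0.896% gained and 0.638% lost over 48576 TSS windows. The cKO mean was lower in 7 and higher in 2, with a median difference of −0.34 against −0.01 over all TSS windows. The libraries did not overlap in 1, *Gpr3*, where cKO was below WT. Over all TSS windows the corresponding shares were 9.38% below and 12.7% above. The count of 7 lower means depends on single libraries. Without cKO replicate 3, the least enriched library, the differences of *Ccnb1*, *Ccnb2* and *Cdk1* were 0.199, 0.068 and 0.190. Without WT replicate 1 those of *Ccnb2*, *Wee2* and *Cdk1* were 0.088, 0.296 and 0.239.

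**Figure D1:**
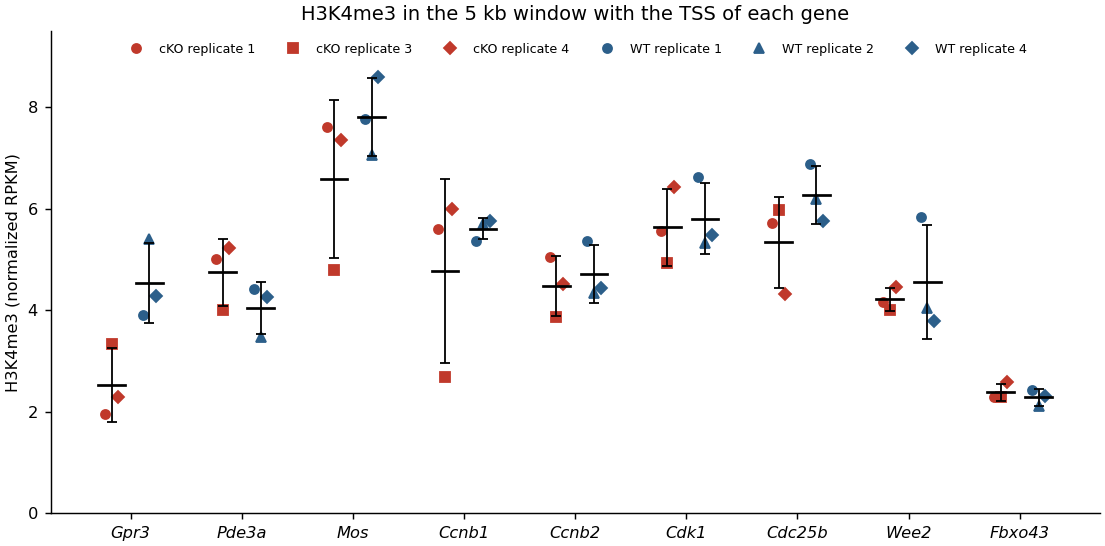
H3K4me3 in normalized RPKM (vertical axis) in the 5 kb window with the TSS of each gene, 1 point per library; bars are the mean ± SD of 3 libraries. *Gpr3* is the only gene whose 3 cKO libraries (1.95 to 3.34) all lie below the 3 WT libraries (3.90 to 5.41).

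*Gpr3*, the receptor that sustains cyclic AMP, showed the lowest values in cKO relative to WT in both of its windows. The gene lies at chr4:133209340-133212536 on the minus strand, and its TSS window also covers part of *Cd164l2*. In the TSS window cKO had 1.95, 3.34 and 2.29 normalized RPKM (in the order of replicates 1, 3 and 4, as below), and WT had 3.90, 5.41 and 4.29 (replicates 1, 2 and 4, as below). The highest cKO library was thus below the lowest WT library. The difference was −2.005 (SE 0.4997, 95% interval −3.12 to −0.89, limma adjusted p = 0.0892). This is the window of the CpG-rich promoter printed above, and it held 178 CpGs.

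In the next window downstream, over the 3′ end of the gene, the values were 1.01, 2.55 and 2.39 in cKO and 4.37, 4.15 and 3.63 in WT. The libraries again did not overlap, and cKO replicate 1 was the lowest. The difference was −2.07 (SE 0.461, 95% interval −3.09 to −1.04, limma adjusted p = 0.0673). These values rest on 4, 27 and 64 reads in cKO and 68, 43 and 111 reads in WT. The window passed with the intensity trend (limma adjusted p = 0.0284) and in edgeR (log2 fold change −1.47, adjusted p = 0.00785), and leaving out single libraries gave adjusted p between 0.0547 and 0.217 in limma. Library-scaled reads over input were 0.15, 1.06 and 1.04 in cKO and 2.62, 2.00 and 1.71 in WT, so that the WT libraries were above input and the cKO libraries were near or below it. This ratio also depends on the enrichment of each library, which differed as given above, and the 0.15 rests on 4 reads.

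The lower values continued upstream. The window 5 kb upstream, listed under *Cd164l2*, had 4.11, 4.40 and 4.99 in cKO and 6.56, 6.68 and 6.02 in WT, and it did pass the test (difference −1.92, SE 0.377, limma adjusted p = 0.0478), but not with the intensity trend (limma adjusted p = 0.0966). The window after it, also under *Cd164l2*, had 4.67, 6.11 and 5.67 in cKO and 6.93, 8.72 and 5.87 in WT, where the libraries overlapped. On the other side, 10 kb downstream of the *Gpr3* TSS, the means were 3.46 in cKO and 3.41 in WT. The run of lower values thus covered 4 neighbouring windows, of which 2 belong to *Gpr3* and 1 was called. The 3 protein-coding genes whose TSS windows were most like that of *Gpr3* over the 6 libraries, by Euclidean distance among 21911 genes, were *Csnk1a1* (1.00 normalized RPKM), *Olfr312* (1.02) and *Nnmt* (1.03). Of these, *Csnk1a1* was called (difference −2.24, limma adjusted p = 0.0498). It was picked by its likeness to *Gpr3* in the same values that were tested, so its call adds nothing on *Gpr3*.

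**Figure D2:**
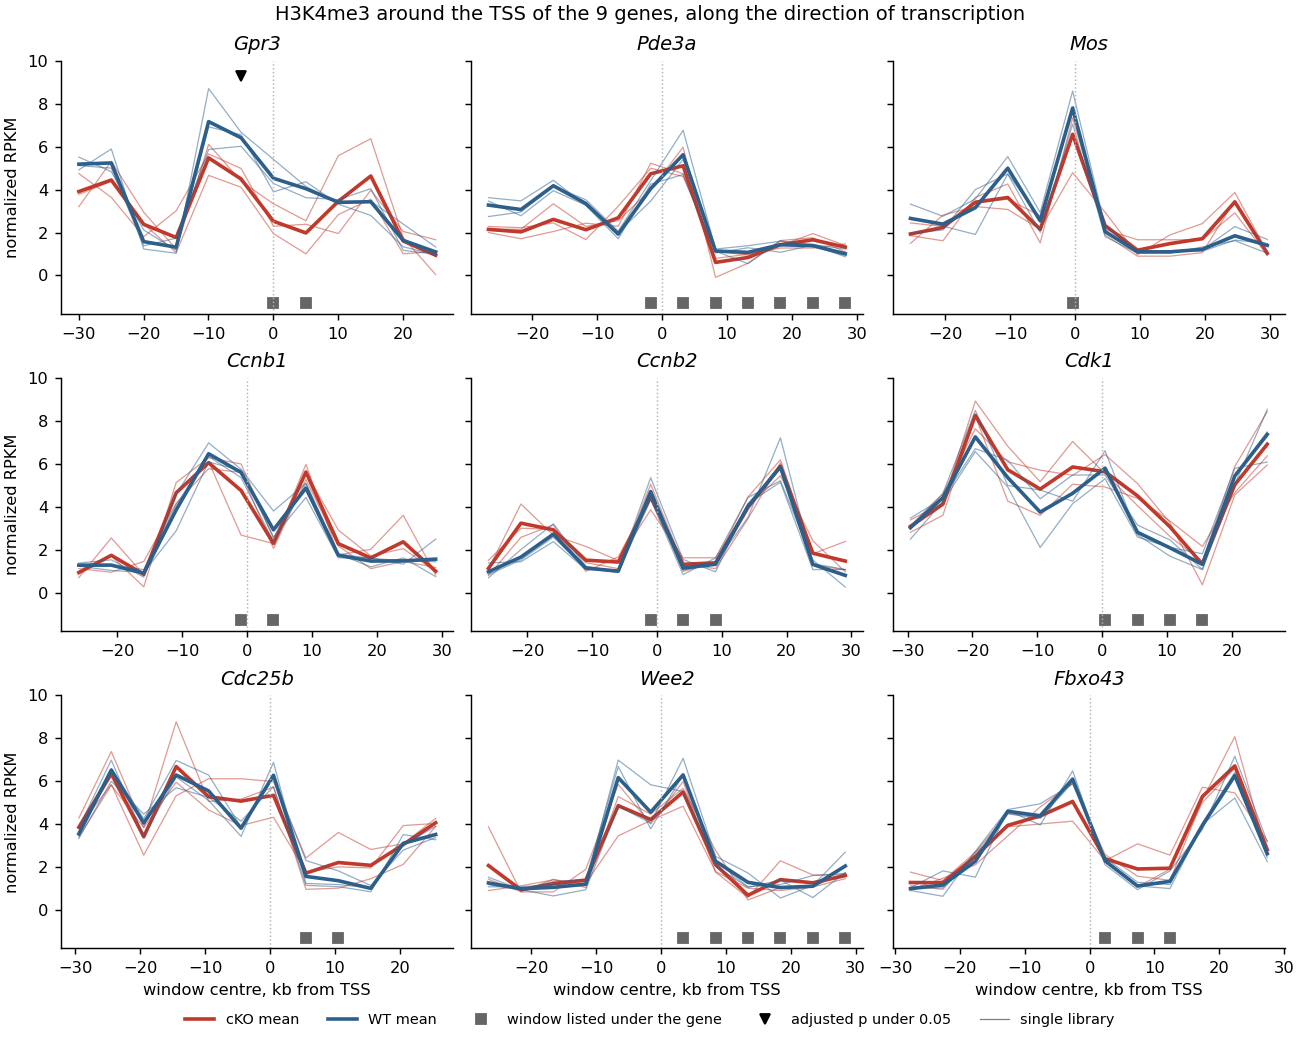
H3K4me3 in normalized RPKM (vertical axis) in 5 kb windows within 30 kb of each gene's TSS (horizontal axis, kb along the direction of transcription); thick lines are means, thin lines single libraries, squares mark the windows listed under the gene and triangles windows with adjusted p under 0.05. For *Gpr3* the cKO mean is lower in 4 neighbouring windows; for *Cdk1* it is higher in the 2 windows next downstream of the TSS window and in the 4 windows just upstream of it.

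*Pde3a*, the phosphodiesterase that acts against GPR3, spans chr6:141249269-141507448 on the plus strand, and its H3K4me3 was concentrated at the start. The TSS window had 4.9997, 4.00 and 5.23 in cKO and 4.42, 3.47 and 4.26 in WT. The groups overlapped, with a difference of 0.70 (SE 0.435, 95% interval −0.27 to 1.66, limma adjusted p = 0.491). It was 0.41 without WT replicate 2 and 1.07 without cKO replicate 3, and the log2 fold change in edgeR was 0.047. The second window was higher than the first in WT, at 5.63 ± 1.05 against 5.11 ± 0.755 in cKO (SD, n = 3), with overlapping libraries and a limma adjusted p of 0.648. Only 3 of its 51 windows exceeded 2 normalized RPKM in the WT mean. The third lay 208 kb into the gene, with 3.17, 5.06 and 2.77 in cKO and 2.69, 3.08 and 2.46 in WT. In that window cKO replicate 3 stood above the other 5 libraries.

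Over the 51 *Pde3a* windows the median was 0.97 in WT and 1.06 in cKO, and the differences ran from −0.59 to 0.92 with a lowest limma adjusted p of 0.470. In 3 windows every cKO library was above every WT library, with differences of 0.38, 0.44 and 0.39 and with 1 to 13 reads per WT library in the first of them. This is 3 of 51, against 9.88% of all windows. Upstream of the TSS, 4 windows outside the gene had lower values in every cKO library than in any WT library, an order found in 9.95% of all windows. They lay 12 to 27 kb before the start, and the one nearest 17 kb had means of 2.61 in cKO and 4.18 in WT (difference −1.57, SE 0.406). The window between them and the TSS had the opposite order, and its 3 cKO values all exceeded the WT values (means 2.69 and 1.93, difference 0.76, SE 0.367). None of these windows was called, and they were picked out after their values were seen.

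**Figure D3:**
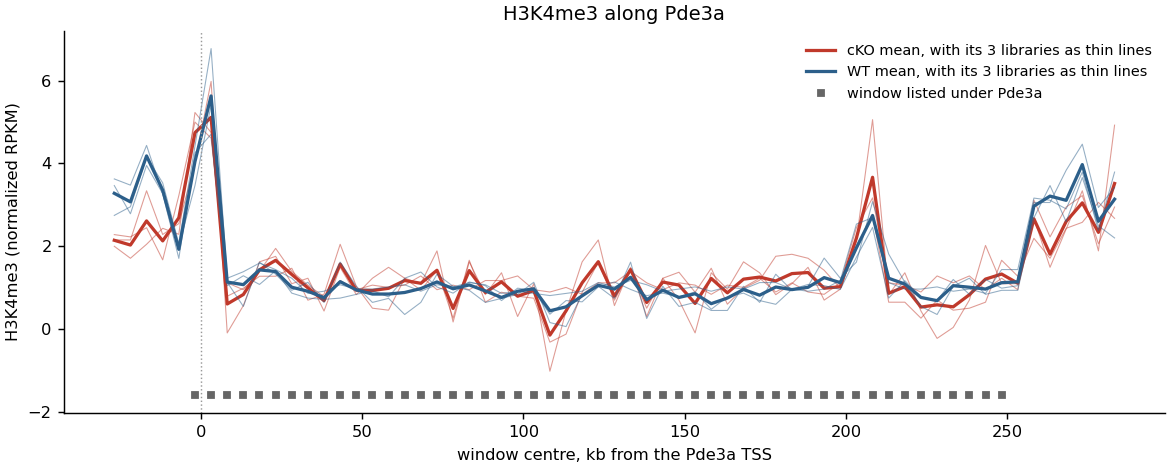
H3K4me3 in normalized RPKM (vertical axis) in 5 kb windows along *Pde3a*, by distance from its TSS in kb; thick lines are means, thin lines single libraries and squares the windows listed under the gene. Both genotypes peak in the first 2 windows, lie near 1 over most of the gene and rise again near 208 kb.

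*Cdk1*, the catalytic subunit of the kinase that drives resumption, had values at its TSS that overlapped between genotypes, and higher values in cKO inside the gene. It lies at chr10:69335146-69352938 on the minus strand. The TSS window had 5.55, 4.93 and 6.44 in cKO and 6.62, 5.31 and 5.49 in WT. Neither group was above the other, and the difference was −0.17 (SE 0.491, 95% interval −1.26 to 0.92, limma adjusted p = 0.882). In the next window downstream the values were 4.06, 4.40 and 5.09 in cKO and 2.69, 2.59 and 3.15 in WT. Every cKO library was above every WT library there. The difference was 1.70 (SE 0.384, 95% interval 0.85 to 2.56, limma adjusted p = 0.0690).

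The window after that in *Cdk1* had 2.62, 3.34 and 3.25 in cKO and 1.70, 2.10 and 2.46 in WT. The groups again did not overlap (difference 0.98, SE 0.373, limma adjusted p = 0.246). In the last window of the gene the means were equal at 1.32. The window next to the TSS window, with the difference of 1.70, passed the test without cKO replicate 1 (difference 1.93, limma adjusted p = 0.0377), whereas in edgeR its log2 fold change was 0.53 with adjusted p = 0.613. Its reads were 59, 41 and 120 in cKO and 36, 27 and 95 in WT.

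The cyclin genes *Ccnb1* and *Ccnb2*, which encode the regulatory subunits of the CDK1 kinase, were marked at the TSS in both genotypes. *Ccnb1* (chr13:100778650-100786570, minus strand) had 5.61, 2.68 and 6.003 in cKO and 5.36, 5.70 and 5.76 in WT at the TSS. Here cKO replicate 3, the least enriched library, stood apart and the other cKO libraries lay around the WT values. The difference was −0.84 (SE 0.733, 95% interval −2.47 to 0.79, limma adjusted p = 0.558), and without cKO replicate 3 it was 0.20. *Ccnb2* (chr9:70407692-70421547, minus strand) had 5.06, 3.87 and 4.51 in cKO and 5.36, 4.34 and 4.44 in WT. Its libraries overlapped, with a difference of −0.24 (SE 0.433, 95% interval −1.20 to 0.73, limma adjusted p = 0.801). The 2 downstream windows of *Ccnb2* lay between 1.14 and 1.39 in the means of both genotypes.

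The 2 genes that act on the inhibitory phosphate of CDK1 had no called window either. *Cdc25b* (chr2:131186949-131198497, plus strand), the activating phosphatase, had 5.72, 5.98 and 4.31 in cKO and 6.88, 6.19 and 5.76 in WT in its TSS window, shared with *Spef1*. One WT library lay within the cKO values, and the difference was −0.94 (SE 0.497, 95% interval −2.04 to 0.17, limma adjusted p = 0.426). Without cKO replicate 4 it was −0.42. The second of the *Cdc25b* windows listed under its own name had 1.01, 3.61 and 2.00 in cKO and 1.18, 1.81 and 1.08 in WT, where the highest value was that of cKO replicate 3.

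*Wee2*, the oocyte kinase that inhibits CDK1, lies at chr6:40439088-40466813 on the plus strand. The window with the 5′ end of the annotated gene had 4.17, 4.00 and 4.46 in cKO and 5.83, 4.05 and 3.78 in WT, where WT replicate 1 alone was high. The RefSeq promoter printed above, with 5 CpGs, lies in the next window, which had 4.83, 5.98 and 5.67 in cKO and 5.52, 7.07 and 6.29 in WT. The libraries overlapped, with a difference of −0.80 (SE 0.473, 95% interval −1.85 to 0.25, limma adjusted p = 0.483). Although its promoter was the poorest in CpG, its WT level of 6.29 ± 0.774 (SD, n = 3) was above that of the *Gpr3* TSS window, 4.53 ± 0.787, and the lowest WT library of *Wee2* (5.52) was above the highest of *Gpr3* (5.41). Of the remaining windows of *Wee2*, the one 13 kb into the gene was lower in every cKO library (difference −0.60, SE 0.360, limma adjusted p = 0.489). Its level was low, at 1.01, 0.569 and 0.457 in cKO and 1.07, 1.72 and 1.05 in WT. This order was found in 9.95% of all windows.

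*Mos* and *Fbxo43*, which act at the later arrest, stood at opposite ends of the TSS levels. *Mos* (chr4:3870657-3872105, minus strand) fits within 1 window, which had 7.61, 4.79 and 7.35 in cKO and 7.77, 7.07 and 8.60 in WT. It had the highest WT level of the 9 genes, and cKO replicate 3 lay below the other 5 libraries. The difference was −1.23 (SE 0.703, 95% interval −2.79 to 0.33, limma adjusted p = 0.466), and without cKO replicate 3 it was −0.33. Library-scaled reads over input in this window were 5.01, 1.92 and 2.99 in cKO and 5.61, 3.71 and 4.66 in WT.

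*Fbxo43* (chr15:36150060-36164884, minus strand) had the lowest TSS level of the 9, with 2.28, 2.29 and 2.58 in cKO and 2.43, 2.10 and 2.31 in WT (difference 0.10, SE 0.327, 95% interval −0.63 to 0.83, limma adjusted p = 0.895). Its TSS is 116 bases from the edge of that window. The window on the other side of the edge, which the table lists under *U1*, was higher, at 5.11, 4.13 and 5.91 in cKO and 5.94, 6.48 and 5.87 in WT, with overlapping libraries and a difference of −1.05 (SE 0.466, limma adjusted p = 0.329). The 2 windows downstream of the *Fbxo43* TSS had means of 1.90 and 1.94 in cKO and 1.11 and 1.33 in WT, and cKO replicate 3 was the highest library in both.

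By WT mean at the TSS the order was *Mos* (7.81), *Cdc25b* (6.27), *Cdk1* (5.81), *Ccnb1* (5.61), *Ccnb2* (4.71), *Wee2* (4.55), *Gpr3* (4.53), *Pde3a* (4.05) and *Fbxo43* (2.28). With the window of its RefSeq promoter (6.29), *Wee2* would stand beside *Cdc25b*, and with the window across the edge from its TSS (6.10), *Fbxo43* would stand between *Cdc25b* and *Cdk1*. The lowest WT library of *Mos*, 7.07, was just above the highest of *Cdc25b*, 6.88. Neighbours from *Cdc25b* to *Pde3a* were not separated in their WT libraries, with *Ccnb1* and *Ccnb2* meeting at 5.36, and the libraries of *Fbxo43* lay below all of them. In cKO the mean of *Gpr3*, 2.53, was next to that of *Fbxo43*, 2.38, and their libraries overlapped.

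**Figure D4:**
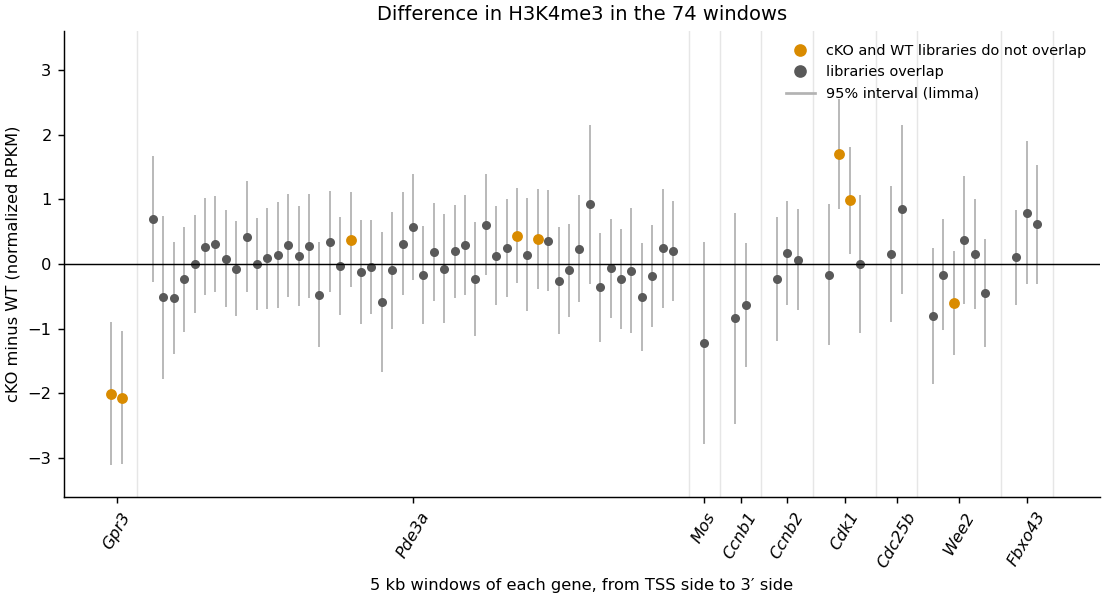
Difference in H3K4me3, cKO minus WT in normalized RPKM (vertical axis), for each of the 74 windows listed under the 9 genes, ordered from the TSS side to the 3′ side within each gene; lines are 95% intervals from limma and orange points mark windows whose cKO and WT libraries do not overlap. The 2 *Gpr3* windows lie near −2 and 1 *Cdk1* window at 1.70, and all *Pde3a* windows lie between −0.59 and 0.92.

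Averaged over all windows listed under a gene, the libraries did not overlap for 3 of the 9 genes, with cKO above in 2 and below in 1. Among all 24679 listed genes the shares were 21.9% above and 8.34% below. The difference was −2.04 for *Gpr3*, 0.63 for *Cdk1* and 0.50 for *Fbxo43*, each with an exact two-sided permutation p of 0.1, the smallest that 3 against 3 libraries allow. Without cKO replicate 3 the difference for *Fbxo43* was 0.22. For the other 6 the differences ran from −1.23 (*Mos*) to 0.50 (*Cdc25b*), with exact permutation p from 0.3 to 1.0. Over every window that overlaps the gene, those of *Cdc25b* and *Ccnb1* moved to 0.022 and −0.24 (from 0.50 and −0.74). These 9 tests share their libraries, and none can reach 0.05.

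The wider machinery was described at the TSS windows of 52 genes in 5 lists. None of the 52 gained or lost H3K4me3 in the test, 20 had a higher and 32 a lower cKO mean, 14 had an unadjusted p under 0.05, and the median difference was −0.30. That median was −0.094 without cKO replicate 3, the least enriched library, and −0.435 without cKO replicate 1. The medians of the 5 lists were not computed without single libraries. Over all TSS windows 50.7% had a lower cKO mean and 19.7% an unadjusted p under 0.05. The libraries did not overlap in 11, with cKO above in 3 and below in 8, against 12.7% and 9.38% of all TSS windows. Of the 17 genes of the APC/C and spindle checkpoint, which control the exit from metaphase, 13 were lower on average, with a median difference of −0.93. Of the 11 genes of CDK1 control 9 were lower, of 10 in cAMP arrest 4, of 7 in the MAPK cascade 3 and of 7 mitotic kinases and phosphatase regulators 3, with median differences of −0.33, 0.24, 0.04 and 0.22.

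In edgeR 0 of the 52 were called, against 439 gained and 414 lost among all 48576 TSS windows. With the intensity trend 2 of the 52 were lost, against 1.83% gained and 1.95% lost over all TSS windows, and these, like the genes that follow, were singled out after their values were seen. *Gja4*, which encodes the connexin between oocyte and granulosa cells, had 6.47 ± 0.362 in cKO and 8.99 ± 1.72 in WT (limma adjusted p = 0.125, with the trend 0.0106, in edgeR 0.654). *Bub1b*, a spindle checkpoint kinase, had 4.55 ± 0.856 and 6.90 ± 0.990 (SD, n = 3, limma adjusted p = 0.0828, with the trend 0.0463, in edgeR 0.561). In the other direction, *Pkmyt1*, a kinase that inhibits CDK1 like WEE2, had 5.03 ± 0.758 in cKO and 3.21 ± 0.822 in WT (limma adjusted p = 0.124). *Adcy3*, an adenylyl cyclase that makes cyclic AMP, had 7.20 ± 0.372 in cKO and 5.82 ± 0.476 in WT (limma adjusted p = 0.119). *Gpr12*, the receptor most like GPR3, had 1.37 ± 0.749 in cKO and 0.907 ± 0.146 in WT (limma adjusted p = 0.571).

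**Figure D5:**
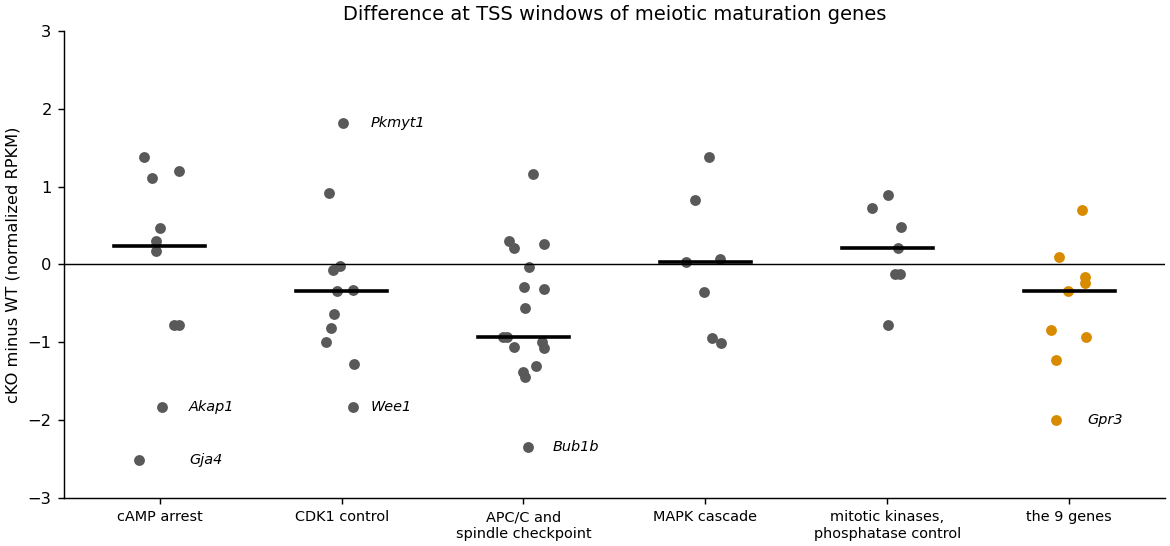
Difference in H3K4me3 at TSS windows, cKO minus WT in normalized RPKM (vertical axis), for the 52 genes of the 5 lists (grey) and the 9 genes (orange); each point is 1 gene and black lines are medians. The APC/C and spindle checkpoint list has the lowest median, −0.93, and no point passed the test.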

How the data were processed

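H3K4me3 was measured by ULI-nChIP-seq, native chromatin precipitation from few cells. The authors trimmed the reads with Trim Galore 0.4.2, mapped them with Bowtie2 2.2.9 to GRCm38 (versions per the labels) and used SeqMonk to quantify 5 kb windows. For H3K4me3 the authors gave a score, RPKM after enrichment normalization, in which 2 percentiles of every library were set equal. For input the authors deposited a signal, the reads of a window scaled to library size. The study made 4 pools per genotype and left out 1 of each for poor enrichment, and those are not analysed here. Whole reads were recovered from the steps of the values (100% of values within 0.01 reads). Input libraries held 20756128 to 26566505 reads, and reads over input were library-scaled and divided by the mean input of the genotype.

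The labels gave the groups. Every window was tested with limma 3.58.1 in R 4.3.3 (no trend, no block, Benjamini-Hochberg over 544879 windows, adjusted p under 0.05). TSSs are gene 5′ ends in GENCODE M21, and promoter sequences are from RefSeq (GRCm38.p6). Alternatives were log2(value + 1) and log2(value + 0.1), an intensity trend, quantile normalization, a mean of at least 1, a threshold of 0.1, the replicate block, other definitions of a gene's windows, leaving out each library, and edgeR 4.0.16 on whole reads (TMM, at least 10 reads). In simulated data of 20000 windows, each of 200 changed by 3 normalized RPKM, limma called 85 of the 200, all in the right direction, with 1 false call, and edgeR called 125 with 0 false calls. The spread between simulated libraries was assumed and not estimated from these data, so these counts do not measure power on the real windows. An earlier requirement of a higher recovery by limma was dropped after the result was seen. The genes, lists and rules were chosen with earlier results of these data known. Genes named with values were the 9 genes, *Setd1b*, pathway genes that passed (none did), and the 3 genes nearest to the gene with the largest TSS difference, and the marker, neighbouring and pathway genes named beside these were chosen after their values were seen. The labels call the libraries biological replicates. Recovered reads may include duplicates. Further software was matplotlib 3.10.9, scipy 1.17.1, pandas 2.3.3, numpy 2.4.6 and Python 3.11.15.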

Additional observations from a re-analysis of the deposited data

How the results depend on the processing

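No window of the 9 genes was called with log2(value + 1), log2(value + 0.1), quantile normalization or a mean of at least 1. Over all windows these gave 0, 0, 1 and 7503 calls, against 5539 in the limma test used above, so the first 3 say nothing about stability. The study reported more altered regions from its own LIMMA test, so its call set was not reproduced here. At an adjusted p under 0.1, 1 window was gained (*Cdk1*) and 2 lost (*Gpr3*), with 1 lost TSS window and 1 lost pathway TSS window. The shares over all windows at 0.1 were not counted, so these counts cannot be set against a background. The intensity trend gave 1 lost window (*Gpr3*) and 2 lost pathway TSS windows, and edgeR gave 1 lost window (*Gpr3*). Leaving out single libraries gave 0 to 1 gained windows (1, in *Cdk1*, without cKO replicate 1), 0 lost, and 0 to 2 lost pathway TSS windows (2 without cKO replicate 1). Over all windows the calls ranged from 0 to 17979, with 0 when cKO replicate 4 or either of WT replicates 2 and 4 was left out and 1 without WT replicate 1, so these 4 settings had almost no power. The median difference over all windows, −0.10 in the limma test used above, was 0.045 with a mean of at least 1 and 0.086 (log2) in edgeR, where that of the 74 windows was 0.47 (log2). The cause of these changes was not tested.

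The replicate block, with numbers 1 and 4 shared by the genotypes, gave 1 gained (*Cdk1*) and 2 lost windows (*Gpr3*), 1 lost TSS window (*Gpr3*, −1.97, limma adjusted p = 0.00190), and 1 gained and 5 lost pathway TSS windows, with 33433 calls over all windows. Deviations of same-numbered libraries correlated with r of 0.319 for replicate 1 and 0.019 for replicate 4 over windows, and the labels do not say what a number marks, so pairing is not established. The TSS difference of *Ccnb1* turned to 0.248 under the block, and that of *Fbxo43* to −0.031 (log2) in edgeR.

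TSS differences that changed sign without 1 library were those of *Ccnb1* (lowest −1.46, highest 0.20), *Ccnb2* (−0.52 to 0.088), *Cdk1* (−0.57 to 0.24) and *Wee2* (−0.73 to 0.30), and none of them was called in any setting. The changes came without cKO replicate 3 (0.199, 0.068 and 0.190 for *Ccnb1*, *Ccnb2* and *Cdk1*) or WT replicate 1 (0.088, 0.296 and 0.239 for *Ccnb2*, *Wee2* and *Cdk1*). Gene means that changed sign were *Ccnb2* (−0.062 to 0.117 without 1 library, −0.015 over every overlapping window) and *Cdc25b* (−0.026 to 0.990 without 1 library). *Gpr3* stayed lower in every setting run, with gene means from −2.38 to −1.65 without 1 library.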
